A study of Mus musculus with 12 samples.

Results

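Pmaip1, Trp53inp1, Phlda3 and Sesn2 are stress genes that the tumour suppressor p53 switches on, and they were followed here across cultured mouse aortic endothelial cells with and without the ETS transcription factors Ets1 and Ets2. All probe sets whose platform annotation named exactly 1 of the 4 symbols were taken, which gave 6 of the 20523 probe sets measured: 1 for Pmaip1, 1 for Phlda3, and 2 each for Trp53inp1 and Sesn2. The genes were selected on earlier results of these data, among them the log2 difference between Ets2KO and WT cells in p53-induced genes, so that comparison is described without a test. Which other comparisons took part in the choice is not known.

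The cells came from the aortas of mice 4 weeks old and were infected in culture with a lentivirus carrying eGFP, or eGFP with Cre recombinase, before total RNA was hybridised to Affymetrix arrays. Cells labelled DKO were Ets1-/-; Ets2 fl/fl with the Cre virus. Ets2KO cells were Ets1+/+; Ets2 fl/fl with the Cre virus, Ets1KO cells were Ets1-/-; Ets2 fl/fl with the eGFP virus, and WT cells were Ets1+/+; Ets2+/+ with the eGFP virus. Each group has 3 columns of values, and every group carried a lentivirus with eGFP. Ets2KO and WT cells differ in Cre and in the floxed alleles as well as in Ets2, and Ets1KO and WT cells also differ in the floxed alleles, so these cannot be told apart. The labels call the samples biological replicates, and nothing else says that they came from separate animals, so p-values measure the spread between these arrays, which may be technical.

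p53 is held low in unstressed cells by the ubiquitin ligase Mdm2, and DNA damage, oxidants and oncogenic signals release it to activate genes for cell cycle arrest, death, repair and metabolic restraint. Pmaip1 encodes Noxa, a BH3-only protein that binds and neutralises the survival factor Mcl1. Trp53inp1 encodes a nuclear protein that promotes p53-dependent death and autophagy, and Phlda3 encodes a small pleckstrin homology protein that competes with the kinase Akt for membrane lipids. Sesn2 encodes a sestrin, a leucine sensor that restrains the growth kinase complex mTORC1, and it is also induced by ATF4 in the integrated stress response. In endothelium these programs are known from responses to irradiation, oxidative stress and starvation.

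In the annotation of assembly GRCm38.p6, Phlda3 lies on chromosome 1 (135766085 to 135769134). Trp53inp1 and Sesn2 lie on chromosome 4 (11156441 to 11174379 and 132492804 to 132510456). RefSeq start-site windows of 300 bases (250 before and 50 after the start, GRCm38.p6) were matched for 2 of the 4 genes and are credited to RefSeq, Phlda3 (chr1:135765835-135766134, plus strand) and Sesn2 (chr4:132510407-132510706, minus strand). Both matched windows are shown, with GC boxes (GGGCGG on either strand) in capitals.
Phlda3: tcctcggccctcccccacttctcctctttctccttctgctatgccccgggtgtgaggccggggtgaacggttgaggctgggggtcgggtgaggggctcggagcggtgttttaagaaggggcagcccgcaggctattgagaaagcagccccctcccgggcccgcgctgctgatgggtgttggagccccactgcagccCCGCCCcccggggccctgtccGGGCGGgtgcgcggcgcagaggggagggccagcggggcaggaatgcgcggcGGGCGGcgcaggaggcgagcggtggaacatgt
Sesn2: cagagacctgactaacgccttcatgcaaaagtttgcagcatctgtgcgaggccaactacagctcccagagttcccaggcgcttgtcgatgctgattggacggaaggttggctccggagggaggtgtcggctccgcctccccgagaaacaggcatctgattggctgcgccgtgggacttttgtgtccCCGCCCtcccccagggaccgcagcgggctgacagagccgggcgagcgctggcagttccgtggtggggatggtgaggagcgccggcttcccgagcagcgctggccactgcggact
The Phlda3 window holds 3 GC boxes and the Sesn2 window 1, with no overlap between them, and 35.7% of 32851 such windows hold at least 1. The extended ETS motif CCGGAA is in 14.9% of windows, the p53 half-site consensus in 8.36% and the TATA box TATAAA in 13.6%. Searched on both strands, none of them has a match in either window, which says only that these letters are not there. The shorter ETS core GGAA was not part of the search and does occur in both windows. GC content is 71.7% in the Phlda3 window and 64.7% in the Sesn2 window, where the median window has 52.7%.

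Values are log2 expression as deposited, and levels below are given relative to the array median, that is, after subtracting the median of all probe sets on that array. The deposited medians were 8.28 to 8.30 in the 3 columns labelled DKO and 9.05 to 9.15 in the other 9. In the third column labelled DKO the values are the average of those in the other two DKO columns for 20521 of 20523 probe sets, to a tolerance of 1e-05, so it was left out and 11 arrays were fitted. Subtracting medians left the median probe set 0.16 higher in the arrays labelled DKO than in WT, where it was 0.63 lower as deposited. For every probe set the deposited difference is below the relative one by 0.79 in DKO against WT, by 0.84 against Ets1KO and by 0.77 against Ets2KO, and it is printed for the 4 genes and for other genes where the scale matters most. The brightest Ets1 probe set read 1.72 and 1.99 in the arrays labelled DKO, -0.82, -0.38 and 0.02 in Ets1KO, 0.43, 0.49 and 0.80 in Ets2KO, and 1.21, 0.72 and 0.95 in WT. A dimmer Ets1 probe set went the other way, at -1.81 and -1.24 in the arrays labelled DKO against -0.35, -0.34 and -0.29 in WT (limma adjusted p = 0.00750), so the Ets1 reading of these arrays depends on the probe set. The brighter Ets2 probe set read 2.72 and 1.34 in the arrays labelled DKO, 0.55, 0.29 and 1.05 in Ets2KO, 1.15, 1.23 and 1.39 in Ets1KO, and 0.68, 0.89 and 1.59 in WT. Ets2 was thus not lower in the arrays labelled DKO, and its difference between Ets2KO and WT was not called (-0.42, limma adjusted p = 0.554). Where these probe sets lie relative to the deleted parts of the genes was not analysed here, so the group names below are those of the labels. Of 13 endothelial markers only Kdr, Eng and Egfl7 were matched to a single-symbol probe set, and Kdr and Egfl7 lay below the array median in nearly every array (Egfl7 was 0.1 above it in Ets2KO replicate 3). By Xist and Eif2s3y, WT replicate 1 and all Ets2KO arrays read as male-like, and the remaining 7 as female-like.

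**Figure D1:**
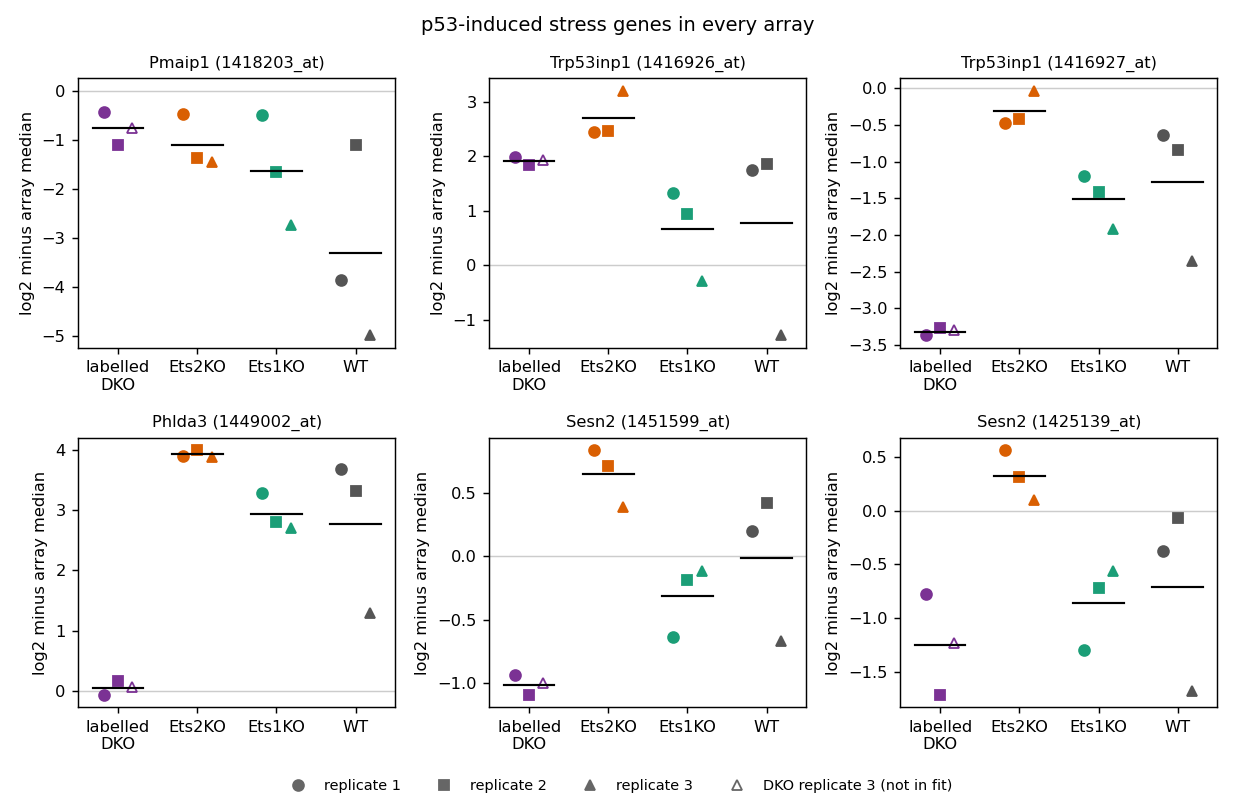
Level of each member probe set (y axis, log2 value minus array median) in every array of the 4 genotype groups (x axis), with circles, squares and triangles for replicates 1, 2 and 3 and a line at the mean of the arrays fitted. WT replicate 3 is the lowest of the Ets2KO, Ets1KO and WT arrays in all 6 panels, and Phlda3 and the dimmer Trp53inp1 probe set are far lower in the arrays labelled DKO.

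The 4 genes shared 2 features across the arrays. Each had its lowest value outside the arrays labelled DKO in 1 WT array, replicate 3, and each had its highest single-loss mean in Ets2KO. Beyond that they parted: in the arrays labelled DKO, Phlda3 was below every other array, both Sesn2 probe sets had their lowest means with calls in only some comparisons, the 2 Trp53inp1 probe sets differed from WT by 1.13 (not called) and -2.04 (called), and Pmaip1 had its highest mean.

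Pmaip1, the death effector, varied most among WT arrays. Its probe set (1418203_at) read -0.43 and -1.12 in the arrays labelled DKO, and -0.47, -1.38 and -1.46 in Ets2KO. It read -0.49, -1.67 and -2.75 in Ets1KO, and -3.86, -1.10 and -4.99 in WT. All values lay below the array median, WT replicate 2 lay among the mutant arrays, and every group overlapped every other. In WT replicates 1 and 3 the probe set stood at percentiles 0.41 and 0.078 of the array, near the bottom. The order of the means was DKO -0.77, Ets2KO -1.10, Ets1KO -1.64 and WT -3.32, and no neighbours in it differed by more than the larger of their SDs (up to 2.00, in WT).

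Trp53inp1 was read by 2 probe sets that gave different pictures. The brighter one (1416926_at) read 1.98 and 1.84 in the arrays labelled DKO, 2.45, 2.47 and 3.21 in Ets2KO, 1.33, 0.95 and -0.29 in Ets1KO, and 1.75, 1.86 and -1.28 in WT. Ets2KO was highest without overlap with any group, and WT replicate 3 and Ets1KO replicate 3 were the only arrays below the array median. The dimmer one (1416927_at) read -3.37 and -3.26 in the arrays labelled DKO, -0.48, -0.42 and -0.030 in Ets2KO, -1.19, -1.42 and -1.92 in Ets1KO, and -0.63, -0.84 and -2.36 in WT. Here the arrays labelled DKO were the lowest by a wide margin, while the order of the 3 other groups was similar to that of the brighter probe set. In DKO replicates 1 and 2 the dimmer probe set stood at percentiles 0.81 and 1.54 of the array, near the bottom. Over the 9 arrays of Ets2KO, Ets1KO and WT the Pearson correlation of the 2 probe sets was 0.99.

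Phlda3, the Akt competitor, had nearly equal levels in the 3 Ets2KO arrays. Its probe set (1449002_at) read -0.068 and 0.16 in the arrays labelled DKO, 3.90, 3.99 and 3.88 in Ets2KO, 3.29, 2.80 and 2.70 in Ets1KO, and 3.69, 3.32 and 1.29 in WT. Ets2KO was above every other array and the arrays labelled DKO below every other, and these 2 groups did not overlap with any. The means were 3.93 ± 0.060 in Ets2KO, 2.93 ± 0.31 in Ets1KO and 2.77 ± 1.29 in WT (SD, n = 3 each), against 0.047 ± 0.16 in DKO (n = 2). Ets1KO and WT, neighbours in this order, differed by less than the WT SD.

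Sesn2, the sestrin, gave nearly the same picture in both probe sets. The brighter one (1451599_at) read -0.93 and -1.09 in the arrays labelled DKO, 0.84, 0.72 and 0.39 in Ets2KO, -0.63, -0.19 and -0.12 in Ets1KO, and 0.20, 0.42 and -0.66 in WT. The arrays labelled DKO were below all others, and Ets2KO replicate 3 lay just under WT replicate 2. The dimmer one (1425139_at) read -0.78 and -1.71 in the arrays labelled DKO, 0.56, 0.32 and 0.099 in Ets2KO, -1.29, -0.72 and -0.56 in Ets1KO, and -0.38, -0.070 and -1.68 in WT. Ets2KO was above all others there, while the arrays labelled DKO overlapped with Ets1KO and WT.

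Ets2KO cells were set against WT cells to see what Ets2 loss with Cre does, and all 6 probe sets were higher in Ets2KO, where 50.9% of all probe sets were. These values took part in the choice of the genes and are a description. The differences were 2.21 for Pmaip1 (SE 0.91), 1.93 and 0.97 for the Trp53inp1 probe sets (SE 0.78 and 0.41), 1.16 for Phlda3 (SE 0.52), and 0.66 and 1.04 for the Sesn2 probe sets (SE 0.28 and 0.42). The groups did not overlap for 4 of the 6, all but Pmaip1 and the brighter Sesn2 probe set, and 14.7% of all probe sets were higher in Ets2KO without overlap. Nothing is read from these counts.

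The Ets2KO differences were smaller without WT replicate 3. That array was picked after it was seen to be the lowest WT array in all 6 probe sets. Leaving it out must therefore narrow every difference, and the values below describe only by how much. Without it, Phlda3 was 0.42 higher in Ets2KO, the Trp53inp1 probe sets 0.90 and 0.43, the Sesn2 probe sets 0.34 and 0.55, and Pmaip1 1.38. All 6 remained above 0, and the difference with all arrays was 1.61 (Pmaip1) to 2.75 (Phlda3) times that without this array. With the sex-like class of each array as a covariate, which in effect sets Ets2KO against WT replicate 1, the differences were 0.24 for Phlda3, 0.96 and 0.32 for Trp53inp1, 0.45 and 0.70 for Sesn2 and 2.76 for Pmaip1.

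WT replicate 3 was the lowest of the 9 Ets2KO, Ets1KO and WT arrays in all 6 member probe sets, where it was the lowest in 16.6% of all probe sets. It stood below the next lowest array by 1.41 for Phlda3, 1.13 for Pmaip1, 0.99 and 0.44 for the Trp53inp1 probe sets, and 0.033 and 0.39 for the Sesn2 probe sets. For the brighter Sesn2 probe set it was thus level with Ets1KO replicate 1. It was picked out after its values were seen, so these figures carry no test.

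The same array was low across other p53-induced genes. A list of 33 such genes, chosen with earlier results of these data known, had 31 measured members besides the 4 genes, and WT replicate 3 was the lowest of the 9 arrays in 18 of them, where it was the lowest for 14.1% of 11015 genes read at their brightest probe set. It was lowest in 6 of 9 arrest and feedback genes, 10 of 14 death genes, and 2 of 8 repair and metabolism genes. Cdkn1a, the p21 inhibitor of cyclin-dependent kinases, read 4.16, 4.30 and 4.41 in Ets2KO, 3.40, 3.16 and 2.94 in Ets1KO, and 3.81, 3.63 and 1.15 in WT. Zmat3, an RNA-binding p53 target, read 2.88, 3.04 and 2.91 in Ets2KO, 2.14, 2.18 and 2.01 in Ets1KO, and 2.78, 3.02 and 0.26 in WT. In both, WT replicate 3 stood below all 8 other arrays. The other WT arrays lay among or near the Ets2KO arrays for Zmat3, and between Ets2KO and Ets1KO for Cdkn1a. The list mean in the WT arrays was 1.13, 1.26 and 0.20.

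**Figure D2:**
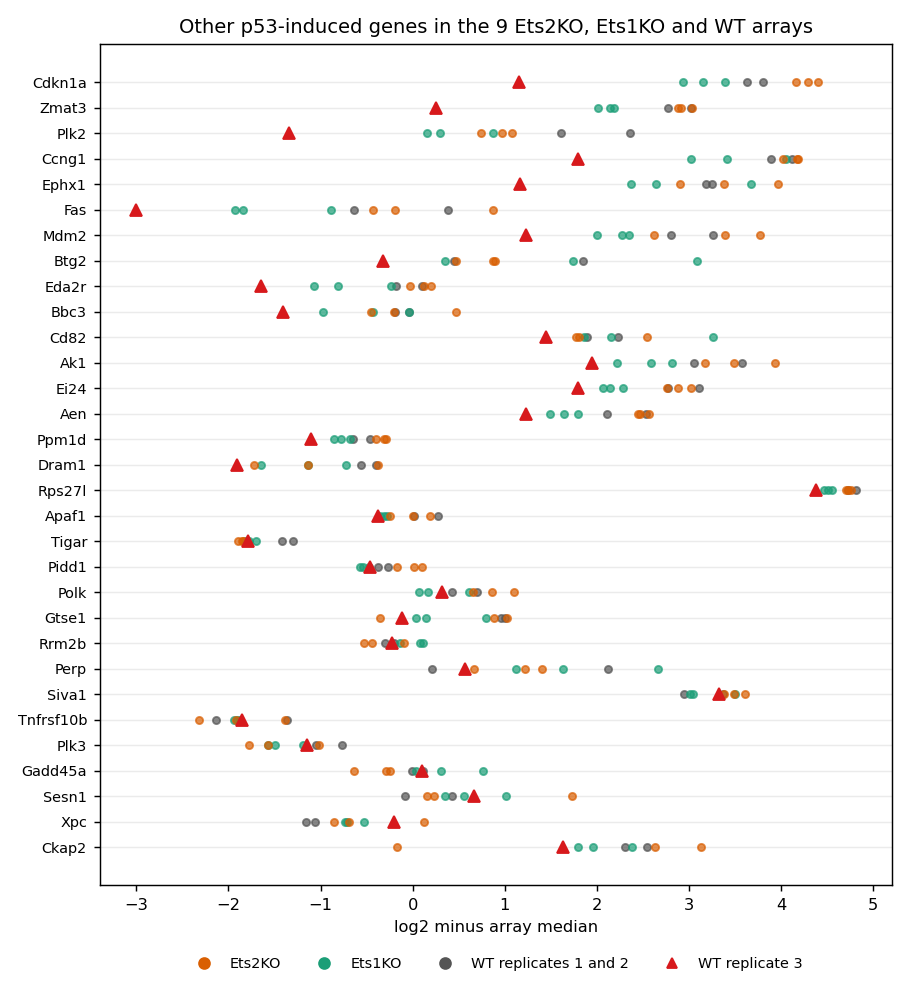
Level (x axis, log2 value minus array median) of 31 other p53-induced genes (rows) in the 9 Ets2KO, Ets1KO and WT arrays, with WT replicate 3 as a red triangle and rows ordered by its distance below the next lowest array. It is the lowest in 18 rows, by over 1 in Cdkn1a, Zmat3, Plk2, Ccng1, Ephx1 and Fas, and is not the lowest in the remaining 13.

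Other features of WT replicate 3 were read beside this. The mean of 17 cell cycle genes was 2.37 in it and 2.20 and 2.12 in the other WT arrays. The 2 adipocyte markers measured, of 5 listed, were high: Adipoq, the fat-cell hormone adiponectin, read 1.8 in WT replicate 3 and -5.1 in both other WT arrays, and Fabp4, a fatty acid binder of fat cells and capillary endothelium, read 3.7 against 0.8 and 0.3. Both were also high in Ets2KO, where Adipoq read -1.9, 3.1 and 4.1 and Fabp4 2.9, 4.1 and 4.6, and the mean of the pair ranged from 0.49 to 4.39 in Ets2KO, from -4.56 to -2.98 in Ets1KO and from -2.40 to 2.74 in WT. The TGF-beta co-receptor Eng read -0.9 in WT replicate 3 and 1.5 and 0.7 in the other WT arrays. The other endothelial markers measured did not share this drop. Kdr read -1.78 in WT replicate 3 against -1.45 and -1.73, and Egfl7 -0.77 against -1.09 and -0.69. In these bulk samples fewer cells of a type and less RNA per cell cannot be told apart. The part of these markers in the result was not tested.

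With WT replicate 3 left out, the wider p53 list differed less between Ets2KO and WT. That array was seen to be low in this list, so leaving it out favours smaller differences. Of the 31 genes, 23 were above 0 with all arrays and 16 without it. The list median was 0.33 with all arrays and 0.044 without it. For all genes the median was 0.0021 and 50.3% were above 0, both with all arrays, and no such values are given without WT replicate 3. Arrest and feedback genes had a median of 0.08 with all arrays and -0.41 without it, death genes 0.30 and 0.01, and repair and metabolism genes 0.35 and 0.21. The difference was 1.42 for Cdkn1a and 1.17 for Fas, the death receptor, neither of them called (limma adjusted p = 0.248 and 0.445), and without WT replicate 3 it was 0.57 and 0.21. By contrast 11 of 12 genes of the ATF4 response, which also induces Sesn2, were below 0 in Ets2KO, with a median of -0.58, and without WT replicate 3 also 11 of 12, with a median of -0.34. None of the 12 was called by limma.

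Ets1KO cells were set against WT cells to see what Ets1 loss does, and none of the 6 probe sets was called (adjusted p below 0.05 by limma over all probe sets). A single probe set was called in this comparison (0.00487%). The differences were 1.68 for Pmaip1 (SE 0.91, limma adjusted p = 0.608; 0.85 without WT replicate 3 and 2.79 without WT replicate 2), 0.16 for Phlda3, -0.12 and -0.23 for Trp53inp1, and -0.30 and -0.15 for Sesn2. The 95% intervals reached from -0.38 to 3.74 for Pmaip1 and from -1.002 to 1.33 for Phlda3, so changes of that size are not excluded by the spread of these arrays. All 6 overlapped between the groups. Of the 31 other p53-induced genes 12 were above 0, beside 45.1% of all genes, and 0 were called by limma. The median was -0.12, beside -0.034 for all genes. Without WT replicate 3 it was -0.38, and no median of all genes is given for that fit. The largest differences, none called, were 1.07 for the antiproliferative Btg2 (limma adjusted p = 0.661) and 0.84 for the desmosomal p53 effector Perp (limma adjusted p = 0.654).

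The arrays labelled DKO were set against WT, a comparison that by the labels is for the loss of both factors, with the Ets1 and Ets2 readings above. It shares the WT arrays with the comparison that took part in choosing the genes as high in Ets2KO, and choice on that comparison alone would favour higher values here. Whether this comparison also took part in the choice is not known, so the direction in which the choice bears on it is open. Of the 6 probe sets 3 were called lower and 0 higher relative to array medians, where 14.4% of all probe sets were called lower and 21.6% higher. Phlda3 had -0.068 and 0.16 in the arrays labelled DKO against 3.69, 3.32 and 1.29 in WT, a difference of -2.72 (SE 0.58, limma adjusted p = 0.00655) or a 6.60-fold lower level. The dimmer Trp53inp1 probe set fell by 2.04 (SE 0.46, limma adjusted p = 0.00833), to near the bottom of the array. The brighter Sesn2 probe set fell by 0.998 (SE 0.31, limma adjusted p = 0.0332). As deposited these differences were -3.52, -2.83 and -1.79, and the dimmer Sesn2 probe set was also called lower (-1.33, limma adjusted p = 0.0403; -0.54 and 0.402 relative to array medians). As deposited 46% of all probe sets were called lower and 2.87% higher.

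The Sesn2 call against WT ended without DKO replicate 1 or 2, or without WT replicate 1 or 2 (limma adjusted p of 0.0838 to 0.141). It also ended with the sex-like class as a covariate, which in effect leaves out WT replicate 1 here. With only the DKO and WT arrays in the fit, none of the 3 calls held (limma adjusted p of 0.0589 to 0.111, with the same differences). The brighter Trp53inp1 probe set was 1.13 higher than in WT relative to array medians and 0.34 higher as deposited (limma adjusted p = 0.337 and 0.768). Pmaip1 was 2.55 higher relative to array medians (SE 1.02, limma adjusted p = 0.0803) and 1.75 higher as deposited (0.186). Without WT replicate 2, the WT array with the highest Pmaip1, it was 3.65 higher and passed the threshold (limma adjusted p = 0.00844). That array was picked after its values were seen, and leaving it out must widen the difference, so nothing is read from this.

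How far the 2 Trp53inp1 probe sets part was read against other genes with several probe sets. In DKO against WT they differed from each other by 3.17, a wider gap than in 98.7% of 4785 genes with 2 or more probe sets, whose median gap was 0.63. In Ets1KO against WT the gap was 0.11 and in Ets2KO against WT 0.96, where the median gaps were 0.11 and 0.16. The direction of Trp53inp1 in the arrays labelled DKO therefore depends on the probe set. The 2 Sesn2 probe sets differed by 0.46 in DKO against WT, a smaller gap than the median, and Phlda3 and Pmaip1 have 1 probe set each, so no such check is possible for them.

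**Figure D3:**
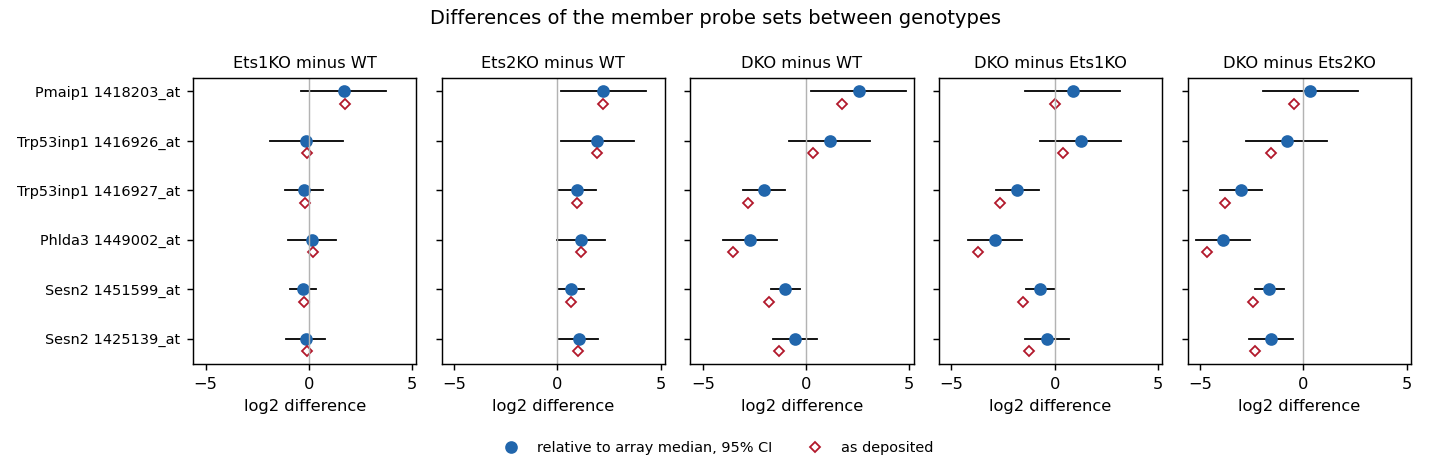
Differences of the 6 member probe sets (rows) in 5 comparisons (panels), on a log2 x axis, with filled circles for values relative to array medians with their 95% intervals and open diamonds for values as deposited. Phlda3 and the dimmer Trp53inp1 probe set lie below 0 on both scales in all 3 comparisons with DKO, and all 6 lie above 0 in Ets2KO minus WT.

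By the labels, the arrays labelled DKO against Ets1KO compare Ets2 loss with Cre in cells without Ets1, although the brightest Ets1 probe set was 2.26 higher in the arrays labelled DKO (limma adjusted p = 0.000344) and the brighter Ets2 probe set was not lower (0.77, limma adjusted p = 0.174). This comparison shares no array with Ets2KO against WT, but whether it also took part in the choice of the genes is not known. Phlda3 had -0.068 and 0.16 in the arrays labelled DKO against 3.29, 2.80 and 2.70 in Ets1KO, a fall of 2.88 (SE 0.58, limma adjusted p = 0.00535). The dimmer Trp53inp1 probe set fell by 1.81 (SE 0.46, limma adjusted p = 0.0143). These 2 of 6 were called lower and 0 higher, where 13.7% of all probe sets were called lower and 21.8% higher. The brighter Sesn2 probe set differed by -0.70 without overlap (limma adjusted p = 0.108), was called without WT replicate 3 (0.0277), which enters through the variance alone, and was called as deposited (-1.54, limma adjusted p = 0.00288), where 46% of all probe sets were called lower. The Trp53inp1 call was lost without DKO replicate 1 (0.0671) or DKO replicate 2 (0.0569). Pmaip1 differed by 0.86 (0.020 as deposited), the brighter Trp53inp1 probe set by 1.25 (0.40 as deposited) and the dimmer Sesn2 probe set by -0.39 (-1.23 as deposited), none called on either scale. The interaction term sets this against the Ets2KO and WT comparison. Because the genes were chosen as high in that comparison a negative value is favoured, so nothing is read from the 3 probe sets that passed its threshold, where 9.36% of all probe sets did so below 0.

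By the labels, the arrays labelled DKO against Ets2KO compare Ets1 loss in cells without Ets2, both with Cre, although the brightest Ets1 probe set was 1.28 higher (limma adjusted p = 0.00510) and the brighter Ets2 probe set 1.40 higher (limma adjusted p = 0.0272) in the arrays labelled DKO. The comparison subtracts the Ets2KO values that took part in choosing the genes as high, which favours lower values here, so it is a description. Phlda3 differed by -3.88 (SE 0.58), the dimmer Trp53inp1 probe set by -3.01 (SE 0.46), and the Sesn2 probe sets by -1.66 and -1.57 (SE 0.31 and 0.47). As deposited these differences were -4.65, -3.78, -2.43 and -2.35. The brighter Trp53inp1 probe set differed by -0.80 and Pmaip1 by 0.33, which were -1.57 and -0.44 on the deposited scale. At the threshold used for the other comparisons 4 of the 6 were lower and 0 higher, where 14.9% of all probe sets were lower (45.7% as deposited) and 20.2% higher, and nothing is read from this count.

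All Ets2KO arrays are male-like and the arrays labelled DKO female-like, and with the sex-like class as a covariate the Phlda3 difference was -2.50. Only the WT group holds both classes, so that term comes from WT replicate 1 (3.69) against WT replicates 2 and 3 (3.32 and 1.29). It thus also carries the low WT replicate 3 and cannot separate sex from it. Markers of other cell types differed between the arrays labelled DKO and Ets2KO too. Col1a1, a fibroblast collagen, was 3.49 higher in the arrays labelled DKO (limma adjusted p = 0.00256) and Acta2, smooth muscle actin, 3.77 higher (limma adjusted p = 0.0185). Csf1r, a macrophage receptor, was 0.74 higher relative to array medians (limma adjusted p = 0.00358) but differed by -0.031 as deposited, so its rise depends on the scale. No other of the 4 leukocyte and macrophage markers measured was called relative to array medians. Dpt, a fibroblast matrix protein, fell by 4.09 (limma adjusted p = 0.00186) and endothelial Eng by 2.19 (limma adjusted p = 0.0161). The endothelial markers Egfl7 and Kdr differed by -1.02 and -0.11 and were not called. Adipoq read -3.2 and -4.3 in the arrays labelled DKO and -1.9, 3.1 and 4.1 in Ets2KO, and was not called (limma adjusted p = 0.0774). The list means ranged from -0.53 to 2.21 in the arrays labelled DKO and from -1.21 to -0.30 in Ets2KO for the 3 smooth muscle markers measured, and from 0.29 to 1.01 and from 0.056 to 0.86 for the 5 fibroblast markers. The mean of the cell cycle genes was -1.66 in Ets2KO replicate 3, against 2.13 and 2.00 in the other Ets2KO arrays. The part of these in the members' differences was not tested.

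The other p53-induced genes moved both ways in the arrays labelled DKO. Against WT, 3 of 31 were called higher and 4 lower (20.7% and 11% of all genes), with a median of 0.49 beside 0.18 for all genes, and 0 and 11 as deposited, where 44% of all genes were called lower. Without WT replicate 3 the calls were 2 higher and 8 lower and the median -0.12. In that fit 7418 of 20523 probe sets were called in either direction, and no median of all genes is given for it. The falls were in Gtse1, a mitotic brake on p53 (-2.34, SE 0.48, limma adjusted p = 0.00536), Ei24, a protein of the endoplasmic reticulum (-1.39), Siva1, a partner of death receptors (-1.04), and Pidd1, a caspase-2 activator (-0.52). The rises were in Rrm2b, the p53-induced ribonucleotide reductase subunit (1.12, SE 0.17, limma adjusted p = 0.00132), the bypass polymerase Polk (1.03) and the p53 pathway phosphatase Ppm1d (0.76). As deposited the rises were 0.33, 0.23 and -0.031, so that of Ppm1d turned.

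Against Ets1KO 4 of 31 were called higher and 3 lower (22.4% and 10.3% of all genes), and 0 and 12 as deposited (43.2% of all genes lower). Without WT replicate 3, 7 were called higher and 3 lower, where 7896 of 20523 probe sets were called in either direction. Gtse1 (-2.05), Siva1 (-1.01) and Ei24 (-0.99) were again lower. Polk (1.22), Rrm2b (0.86), Ppm1d (0.80) and the apoptosome scaffold Apaf1 (0.78) were higher relative to array medians, at 0.38, 0.021, -0.042 and -0.065 as deposited. Against Ets2KO 1 of 31 was called higher, Rrm2b (1.24), and 6 lower (20.6% and 12.3% of all genes). As deposited the calls were 1 and 13 (43.7% of all genes lower). Without WT replicate 3 they were 2 and 7, where 7842 of 20523 probe sets were called in either direction. The 6 called lower with all arrays were Gtse1 (-2.24), Ei24 (-1.71), the adenylate kinase Ak1 (-1.63), the nuclease Aen (-1.43), Siva1 (-1.32) and Pidd1 (-0.87). The 3 comparisons share the arrays labelled DKO, so the recurrence of a gene among them is not independent. Cdkn1a, whose arrays labelled DKO read 2.89 and 4.31, was not called in any of the 3.

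**Figure D4:**
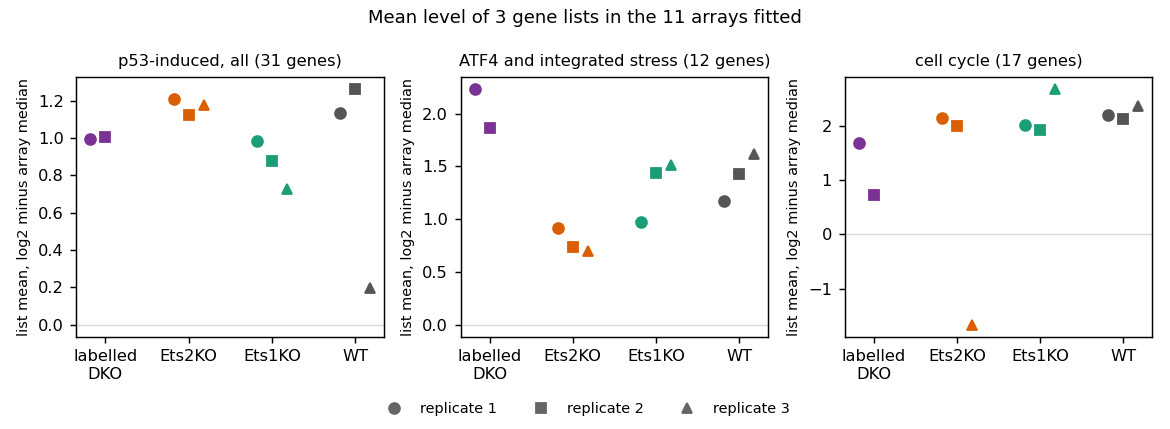
Mean level of 3 gene lists (y axis, log2 value minus array median, each gene at its brightest probe set) in the 11 arrays fitted, by genotype group (x axis), with circles, squares and triangles for replicates 1, 2 and 3. WT replicate 3 is lowest for the 31 p53-induced genes at 0.20, the arrays labelled DKO are highest for the 12 ATF4 genes at 2.23 and 1.86, and Ets2KO replicate 3 is lowest for the 17 cell cycle genes at -1.66.

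Several ATF4 and integrated stress genes were higher in the arrays labelled DKO. Against Ets2KO 6 of 12 measured genes were called higher and 0 lower, where 20.6% and 12.3% of all genes were, with a median of 1.19 (0.42 as deposited, with 3 higher and 1 lower). Trib3, a pseudokinase that inhibits Akt, rose by 2.84 (SE 0.39, limma adjusted p = 0.000944), the chromatin stress protein Nupr1 by 2.56, the transcription factor Atf3 by 2.06 and the death-promoting factor Ddit3 by 1.66. As deposited they were 2.07, 1.78, 1.29 and 0.89 higher. Against WT 3 of 12 were called higher (Nupr1 2.31, Ddit3 2.13 and Trib3 1.44), and against Ets1KO 4 of 12, with 0 lower in both, where 20.7% and 22.4% of all genes were called higher. As deposited 1 was higher and 4 lower against WT (median 0.022), and 1 higher and 2 lower against Ets1KO (median -0.12), so the split depends on the scale. Atf4 itself was not called in any comparison. Sesn2, a target of this response too, was called lower against WT at its brighter probe set (-0.998) and at neither against Ets1KO (-0.70 and -0.39).

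Among relatives and partners of the 4 genes, 7 of 14 measured were called against WT in the arrays labelled DKO, 3 higher and 4 lower, where 20.7% and 11% of all genes were (0 and 5 as deposited, with 44% of all genes lower). Sesn3, another sestrin, was 1.13 higher (limma adjusted p = 0.0176) and 0.34 higher as deposited, though its other probe set differed by -0.075. The BH3-only death genes Bik and Bcl2l11 were 0.97 and 0.91 higher (limma adjusted p = 0.00363 and 0.0418; 0.17 and 0.11 as deposited), and of the other Bcl2l11 probe sets 1 was called lower (-0.77). Sesn1 was not called in any comparison. The 4 called lower were Bak1, the pore-forming death protein that Noxa acts through (-1.38), the BH3-only Bad (-1.09), Akt1, the kinase that Phlda3 opposes (-0.97), and Mcl1, the partner of Noxa (-0.88, limma adjusted p = 0.0451). As deposited they were -2.18, -1.88, -1.76 and -1.68. Akt1's second probe set differed by -4.96, so its size depends on the probe set. Against Ets1KO, Trp53inp2, the close relative of Trp53inp1, was 1.66 higher (limma adjusted p = 0.0346; 0.82 as deposited), and Phlda1 was 1.19 higher against Ets2KO (limma adjusted p = 0.0426; 0.42 as deposited).

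Of 11 p53 regulators 7 were measured, and 0 were called by limma in Ets1KO against WT. The kinase gene Atr, which signals replication stress to p53, was higher in the arrays labelled DKO against WT (1.17, limma adjusted p = 0.00318), Ets1KO (1.34) and Ets2KO (1.31), and 0.38, 0.50 and 0.54 higher as deposited. Mdm4, the partner of Mdm2, was 1.75 lower than in Ets1KO at its brightest probe set (limma adjusted p = 0.0357), which differed by -0.041 from WT. Its other probe sets gave -1.28 and -0.19 against Ets1KO, neither called. Hipk2, a kinase that acts with Trp53inp1 on p53, was 1.65 higher against WT at its brightest probe set (limma adjusted p = 0.0386), while its 6 other probe sets gave -0.71 to 2.33. Chek2 and the brightest Mdm2 probe set were not called in any comparison, while the other Mdm2 probe set fell by 2.13 against Ets2KO (limma adjusted p = 0.0310).

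The genes whose brightest probe set followed each member most closely over the 9 Ets2KO, Ets1KO and WT arrays were found by Pearson correlation among 6449 genes above the median level. For Phlda3 the closest was Cdkn1a (r = 0.99, 0.97 without WT replicate 3), then Gpx7 (0.97) and App (0.96). For Trp53inp1 they were Kdelr1 (0.98), Kdm5b (0.98) and Add1 (0.96), for Sesn2 Synpo (0.97), Rbpj (0.97) and Vcp (0.95), and for Pmaip1 Ptges3l (0.92), Nucb2 (0.91) and Gmppa (0.91). These correlations describe 9 arrays that differ in genotype. Between members, Phlda3 and the brighter Trp53inp1 probe set had r = 0.94 (0.91 without WT replicate 3), Phlda3 and the brighter Sesn2 probe set 0.78 (0.72), and Pmaip1 and Phlda3 0.68 (0.20).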

How the data were processed

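Total RNA of cultured aortic endothelial cells was profiled on Affymetrix mouse arrays. The authors deposited log2 expression values per probe set in 12 columns, made with RMA per the submitters' processing notes. No version of it was stated, and the number of arrays limits the precision. Groups were taken from the sample titles; the short descriptions call the lost gene wild type in Ets1KO and Ets2KO samples, and titles and genotypes were followed. The members and gene lists were chosen with earlier results of these data known.

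The median of each of 11 arrays was subtracted, and a linear model with 4 group means was fitted over 20523 probe sets by lmFit and eBayes of limma 3.58.1 (R 4.3.3), leaving 7 residual degrees of freedom per probe set. The Benjamini-Hochberg adjustment ran over all probe sets of a comparison, and a call is an adjusted p below 0.05. No filter on low values was used. Symbols came from the platform annotation (18824 probe sets with 1 symbol, 549 with several, 1150 without). Named genes were all member probe sets, up to 4 called genes of each list in a comparison or the 2 largest where none was called, and p53 regulators and relatives of the members; other genes were chosen after their values were seen. The fit was tested on simulated data. Replicate numbers did not pair the arrays: the deviations of same-numbered arrays from their group means correlated at -0.31 to 0.100. Alternatives were the deposited scale, all 12 columns, quantile normalization, eBayes with trend, array weights, a replicate block, the sex-like class, fits of 2 groups, 1 probe set per gene, brighter probe sets only and leaving out each array. Plots used matplotlib 3.10.9 (Python 3.11.15).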

Additional observations from a re-analysis of the deposited data

Results flagged for a closer look

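The difference between DKO and Ets1KO minus that between Ets2KO and WT was -4.04 for Phlda3, -2.78 for the dimmer Trp53inp1 probe set and -1.36 for the brighter Sesn2 probe set, 3 values that passed the threshold of the model's interaction term. The term subtracts the Ets2KO and WT comparison in which the genes were chosen as high, so a negative value is favoured by the choice, and the values are a description with no test. As deposited they were -4.86, -3.60 and -2.18.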

How the results depend on the processing

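Relative to array medians, the members called numbered 0 in Ets1KO against WT, 3 in DKO against WT, 2 in DKO against Ets1KO, 4 in DKO against Ets2KO and 3 for the interaction, the last 2 being favoured by how the genes were chosen. Over all 20523 probe sets the calls numbered 1, 7389, 7275, 7215 and 4034 in the same order. Leaving out each of the 11 arrays in turn gave 0, 2 to 3, 1 to 3, 3 to 4 and 2 to 3 members called. All 6 probe sets stayed higher in Ets2KO than in WT in each such fit. Over all probe sets these fits gave 1 to 72, 4911 to 7997, 5167 to 7906, 5135 to 7842 and 2610 to 4298 calls. With 1 probe set per gene (4 probe sets) the calls were 1 in DKO against Ets1KO, 2 in DKO against Ets2KO and 1 for the interaction. Of all 11015 genes 3470, 3533 and 1795 were called there. With the 2 probe sets above the median only, 2 were higher in Ets2KO and 1 was called in each of the other DKO comparisons and the interaction. Of the 10261 probe sets in that fit, 3856 were called in DKO against WT, 3904 against Ets1KO, 3943 against Ets2KO and 2234 for the interaction. With only the 2 groups fitted, 0 were called in DKO against WT, where the calls over all 20523 probe sets fell from 7389 to 4093. With the sex-like class 0 were called in DKO against Ets2KO and 1 for the interaction. Calls over all probe sets fell there from 7215 to 981 and from 4034 to 1775, so fewer calls in these fits are not particular to the members. With the replicate number as a block the calls were 0, 3, 2, 4 and 2. Over all probe sets they were 1, 6498, 6337, 6197 and 2994, and the replicate numbers do not pair the arrays. Phlda3 was called in DKO against Ets1KO in all 21 alternatives, and against WT in 20 of 21 (not with 2 groups).

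Differences that turned sign were none of them called. For Pmaip1 in DKO against Ets2KO, the deposited scale gave -0.44, the block -0.19 and the sex-like class -0.48, and leaving out arrays gave -0.013 to 0.68. For the brighter Trp53inp1 probe set the sex-like class gave 0.37 in Ets1KO against WT (leaving out arrays, -1.15 to 0.43), 0.66 in DKO against Ets2KO and 0.29 for the interaction, where array weights gave 0.22 and leaving out arrays -1.23 to 0.34. For the dimmer one in Ets1KO against WT the sex-like class gave 0.091, and leaving out arrays -0.77 to 0.091. For Phlda3 in Ets1KO against WT array weights gave -0.42, and leaving out arrays -0.58 to 0.62. For the dimmer Sesn2 probe set in Ets1KO against WT the sex-like class gave 0.016 and leaving out arrays -0.64 to 0.17, and in DKO against Ets1KO leaving out arrays gave -0.85 to 0.081. The cause was not tested. Signal over background was not used here, so what dim probe sets such as Pmaip1 and the dimmer Trp53inp1 probe set can show is not bounded.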
